A study of Mus musculus with 2 samples.

Results

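The EGR, NR4A and IER families are immediate early genes, whose transcripts appear within minutes of a stimulus without new protein being made. The 9 genes described here are Egr1, Egr2, Egr3, Nr4a1, Nr4a2, Nr4a3, Ier2, Ier3 and Ier5. They were chosen by name, with earlier results of these data known. All 9 were measured, by 11 probe sets, among 19505 named genes. Only Egr3 had more than 1 probe set, and the brightest on average stands for the gene.

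The samples were macrophages sorted from hearts of wild-type male C57BL/6 mice, 10 weeks old, after ischemia–reperfusion (IR), in which a coronary artery is tied and then released. From CD45+CD11b+ heart cells, a gate that also admits other leukocytes carrying CD11b, MHCII+ macrophages and MerTK- macrophages were collected, and each population was hybridized to 1 Affymetrix array. Both populations came from injured hearts of the same strain, and no uninjured heart was analysed here. Per the study's methods, cells of several hearts were pooled for a sample, and hearts were digested with enzymes at body temperature before the sort. The interval from IR to the sort is not given for the arrays in the sources used here.

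EGR proteins are zinc-finger transcription factors that bind GC-rich sites. NR4A proteins are nuclear receptors that act without a known physiological ligand. The IER genes are named for their rapid induction: Ier2 and Ier5 encode related nuclear proteins, and Ier3 encodes a small protein linked to survival under inflammatory signals. In macrophages these genes respond to bacterial products, growth factors and cyclic AMP. Their transcription is known to depend on serum response factor with its ternary complex partners, on CREB and on NF-κB, acting at elements near the start of the gene. Enzymatic release of cells from tissue is also known to induce them.

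Promoter windows of RefSeq (GRCm38.p6, 250 bases before to 50 after the annotated start) were found for 6 of the 9 genes, 10 windows in all, and Egr1, Egr3 and Ier2 had none. The upstream 250 bases are shown for the NR4A genes, because each carries repeated copies of the core of the cyclic AMP response element (CRE), to which CREB binds. Capitals mark this CRE core, TGACG on either strand. The stretches are chr15:101266596-101266845 on the plus strand for Nr4a1, chr2:57124004-57124253 on the minus strand for Nr4a2 and chr4:48045055-48045304 on the plus strand for Nr4a3, each written 5′ to 3′ and ending just before the start.
Nr4a1: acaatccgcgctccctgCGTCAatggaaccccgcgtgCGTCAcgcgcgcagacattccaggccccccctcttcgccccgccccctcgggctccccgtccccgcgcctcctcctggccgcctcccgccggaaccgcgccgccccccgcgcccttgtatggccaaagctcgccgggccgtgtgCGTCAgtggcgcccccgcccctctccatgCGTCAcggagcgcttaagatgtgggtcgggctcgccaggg
Nr4a2: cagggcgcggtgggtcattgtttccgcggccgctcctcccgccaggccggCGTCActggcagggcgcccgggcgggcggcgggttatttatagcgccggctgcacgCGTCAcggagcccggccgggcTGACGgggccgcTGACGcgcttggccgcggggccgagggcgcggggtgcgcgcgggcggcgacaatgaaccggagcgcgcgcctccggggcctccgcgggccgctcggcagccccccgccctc
Nr4a3: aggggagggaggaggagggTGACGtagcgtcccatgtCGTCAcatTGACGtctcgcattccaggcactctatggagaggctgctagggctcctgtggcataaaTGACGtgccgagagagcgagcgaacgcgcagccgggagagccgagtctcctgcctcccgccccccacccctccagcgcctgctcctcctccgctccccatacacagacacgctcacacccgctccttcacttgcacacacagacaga

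Each NR4A window held 4 CRE cores. In Nr4a1 they began 233, 213, 69 and 40 bases before the start, in Nr4a2 200, 144, 123 and 111, and in Nr4a3 231, 213, 205 and 147. At least 1 core was present in 20.8% of the 32851 promoter windows of all genes, and at least 4 in 0.231% of them (76 windows). Of the other genes, Egr2 had 2 cores in each of 3 overlapping windows and 0 in its other 2 windows, and Ier3 and Ier5 had 0. The CRE core was added to the search after these sequences had been seen. The full CRE, TGACGTCA, which contains the core, was in 0 of the 10 windows and in 1.79% of all windows.

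A window each of Egr2 and Ier3 is shown for other elements these families are known for. In Egr2 (chr10:67537619-67537868, plus strand) the capitals mark the core of a serum response element, where serum response factor binds, and in Ier3 (chr17:35821463-35821712, plus strand) a κB site, the element of NF-κB. Both were searched on both strands by their usual consensus.
Egr2: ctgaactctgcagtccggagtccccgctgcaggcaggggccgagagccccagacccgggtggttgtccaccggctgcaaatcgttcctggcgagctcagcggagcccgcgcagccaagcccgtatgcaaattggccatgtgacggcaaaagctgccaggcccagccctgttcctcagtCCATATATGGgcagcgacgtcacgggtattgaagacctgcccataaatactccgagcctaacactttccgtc
Ier3: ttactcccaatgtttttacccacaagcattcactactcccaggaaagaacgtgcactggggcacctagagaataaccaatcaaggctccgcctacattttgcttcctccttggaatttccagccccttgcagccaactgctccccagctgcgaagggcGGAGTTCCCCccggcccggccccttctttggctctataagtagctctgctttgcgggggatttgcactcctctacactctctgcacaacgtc

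The serum response element core lay 72 to 63 bases before this Egr2 start. It was present in 4 of the 5 Egr2 windows, of which 3 overlap and share the same copy, in no window of the other genes here, and in 1.63% of all windows. The κB site of Ier3 lay 92 to 83 bases before the start, Nr4a1 had another that crosses its start, and 4.51% of all windows held one. An EGR site, GCGNGGGCG, was found in the windows of Nr4a1 and Nr4a2 (5.55% of all windows). The NR4A monomer element AAAGGTCA was in 0 of the 10 windows (1.51% of all windows), and the AP-1 site, TGANTCA with C or G at N, in 0 (5.20%). The exact letters TATAAA, a usual form of the TATA box, were only in the window of Nr4a2 (13.6% of all windows). There they lay on the reverse strand, from -164 to -159 relative to the start. Close variants, such as TATAAG in the windows of Ier5 and Ier3, were not searched, so these genes may still have a TATA box. These matches describe letters and say nothing of binding.

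Values are log2 signals as deposited, and a difference is the value in MHCII+ minus that in MerTK- macrophages, so that 1 stands for 2-fold. Since each population had 1 array, there was no spread between replicates and no test was possible, and precision is limited by that number. A gene counted as above the floor where the higher of its 2 values passed the floor of its own array. That floor was the 95th percentile of 1452 odorant, pheromone and taste receptor probe sets, 4.23 for MHCII+ and 4.67 for MerTK-. This held for 10521 genes and for all 9 members, each on both arrays.

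The 9 genes had signal above the floor in both populations, and 8 of them were less than 2-fold apart. Past 2-fold towards MHCII+ macrophages there were 0 of the 9, against 13.4% of all genes above the floor. Past 2-fold towards MerTK- macrophages there was 1, Egr1, against 6.89% of all genes, a count near this background. The differences of 6 genes were under 1.5-fold. As deposited, 2 were higher in MHCII+ macrophages and 7 in MerTK- macrophages, where 58.4% and 41.6% of all genes above the floor were. After centring on the hybridization controls the numbers were 8 and 1, beside 92.2% and 7.81% of all genes above the floor. The median difference of the 9 was -0.38, beside 0.15 for all genes above the floor.

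**Figure D1:**
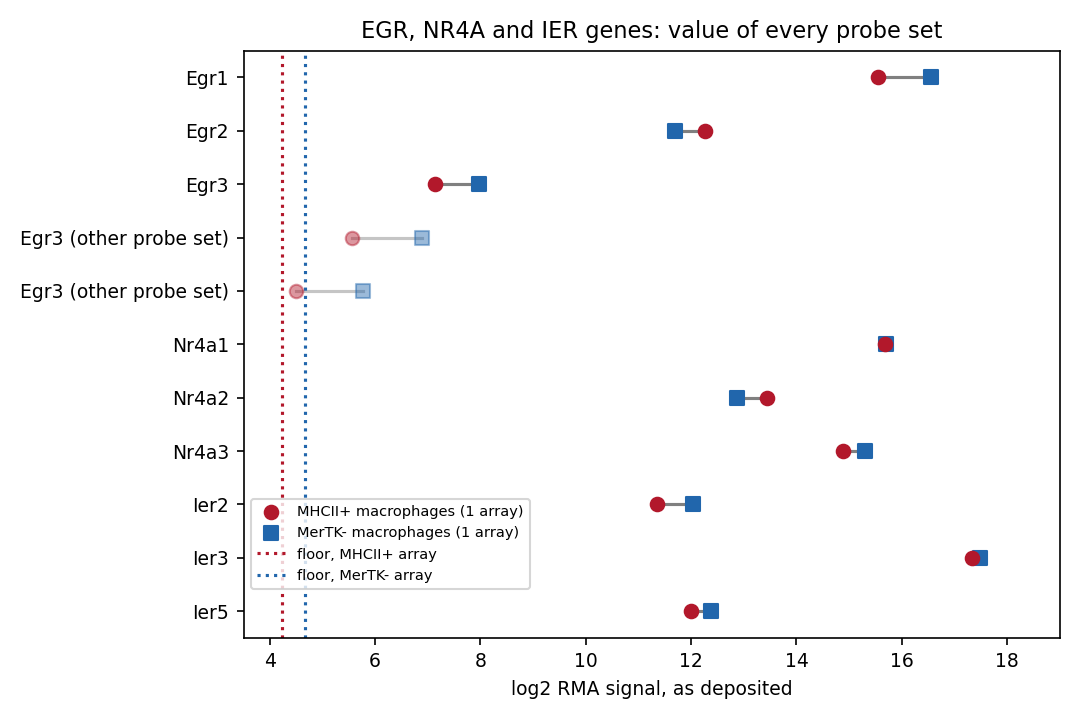
Log2 RMA signal (x axis) of each of the 11 probe sets of the 9 genes (rows) on the MHCII+ array (red circles) and the MerTK- array (blue squares), with the floors of 4.23 and 4.67 as dotted lines. Faded rows are Egr3 probe sets that were not taken for the gene, and there is 1 array per population, so no error is drawn. The widest gap among the taken probe sets is that of Egr1, at 15.54 in MHCII+ and 16.56 in MerTK- macrophages.

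Egr1 had the largest difference of the 9 genes as deposited, with 1 probe set taken per gene. Its protein is the founding EGR factor, which in myeloid cells is linked to differentiation towards macrophages. The signal of Egr1 was 15.54 in MHCII+ against 16.56 in MerTK- macrophages, a difference of -1.01 or 2.02-fold, just past the threshold. A larger difference in this direction was present in 6.68% of all genes above the floor. With the arrays centred on the hybridization controls, the difference of Egr1 was -0.079. With the mean over probe sets, Egr3 had a larger difference than Egr1, at -1.15.

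Egr2, a factor known from myelination and from alternatively activated macrophages, lay on the other side. Its signal was 12.26 in MHCII+ against 11.70 in MerTK- macrophages, a difference of 0.57 or 1.48-fold. The difference of Egr2 exceeded that of Egr1 by 1.58, a contrast that a shift of a whole array leaves as it is, and by 1.64 after quantile normalization of the arrays. It exceeded that of Egr3 by 1.41, or 2.66-fold. Nab1 and Nab2 encode co-repressors that bind EGR proteins, and they too lay on opposite sides as deposited and after centring on the hybridization controls (-0.29 and 1.82). The signal of Nab1 was 10.40 in MHCII+ against 11.63 in MerTK- macrophages (-1.22, 2.33-fold), and that of Nab2 9.60 against 8.72 (0.88, 1.84-fold).

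Egr3, which in lymphocytes acts downstream of the antigen receptor, was measured by 3 probe sets annotated to different transcripts. The one taken here read 7.14 in MHCII+ against 7.98 in MerTK- macrophages, a difference of -0.84 or 1.79-fold, which made Egr3 the member nearest to 2-fold from below. The second read 5.56 against 6.89 (-1.32, 2.50-fold) and the third 4.50 against 5.78 (-1.27, 2.42-fold). As deposited all 3 were lower in MHCII+ macrophages, and the 2-fold call depended on the probe set. After centring on the hybridization controls the sign depended on it too, with 0.095 for the one taken and -0.39 and -0.34 for the others. On both arrays the one taken lay under the 95th percentile of the negative-control probe sets, 9.03 for MHCII+ and 9.66 for MerTK-, so that its signal is less clearly above background than that of the other 8 genes. Egr4, a further family member, did not pass the floor (3.57 and 4.45).

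The NR4A genes were all less than 1.5-fold apart as deposited. Nr4a1, known as Nur77 and required for the development of Ly6C-low monocytes, had a signal of 15.69 in MHCII+ against 15.70 in MerTK- macrophages, a difference of -0.0087 and the smallest of the 9 genes. Nr4a2, called Nurr1 and known from dopamine neurons, had 13.45 in MHCII+ against 12.87 in MerTK- macrophages (0.58, 1.49-fold). Nr4a3, or NOR1, had 14.88 in MHCII+ against 15.30 in MerTK- macrophages (-0.42, 1.34-fold). The 3 genes that share the repeated CRE core thus lay on both sides of 0 as deposited, while all 3 were higher in MHCII+ macrophages after centring on the hybridization controls.

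Within the NR4A family the differences of Nr4a2 and Nr4a3 were 0.99 apart, or 1.99-fold, and 1.10 apart after quantile normalization. NR4A1 and NR4A2 proteins can pair with retinoid X receptors. The receptor genes Rxra (7.28 in MHCII+ against 6.92 in MerTK- macrophages) and Rxrb (6.50 against 6.64) were less than 2-fold apart as deposited. Rxrg did not pass the floor (2.95 and 3.77). After centring on the hybridization controls Rxra was past 2-fold towards MHCII+ macrophages, as were 54.9% of all genes above the floor.

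The IER genes were lower in MHCII+ than in MerTK- macrophages, all 3 by less than 2-fold as deposited, while all 3 were higher there after centring on the hybridization controls. The signal of Ier2 was 11.35 in MHCII+ against 12.04 in MerTK- macrophages (-0.69, 1.62-fold). Ier5, which is known to act on heat shock factor, had 12.00 against 12.38 (-0.38, 1.30-fold). Ier3, whose promoter holds the κB site shown above, had 17.34 against 17.49 (-0.16, 1.11-fold). The differences of this family spanned 0.54, less than those of the EGR genes (1.58) and the NR4A genes (0.99). The relative Ier5l did not pass the floor (3.52 and 3.40).

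Ier3 on both arrays and Egr1 on the MerTK- array read above 16, the log2 limit of a 16-bit scanner, as did 337 of 28846 probe sets on the MHCII+ and 331 on the MerTK- array. How such values arose was not settled, so folds here are those of the deposited scale.

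**Figure D2:**
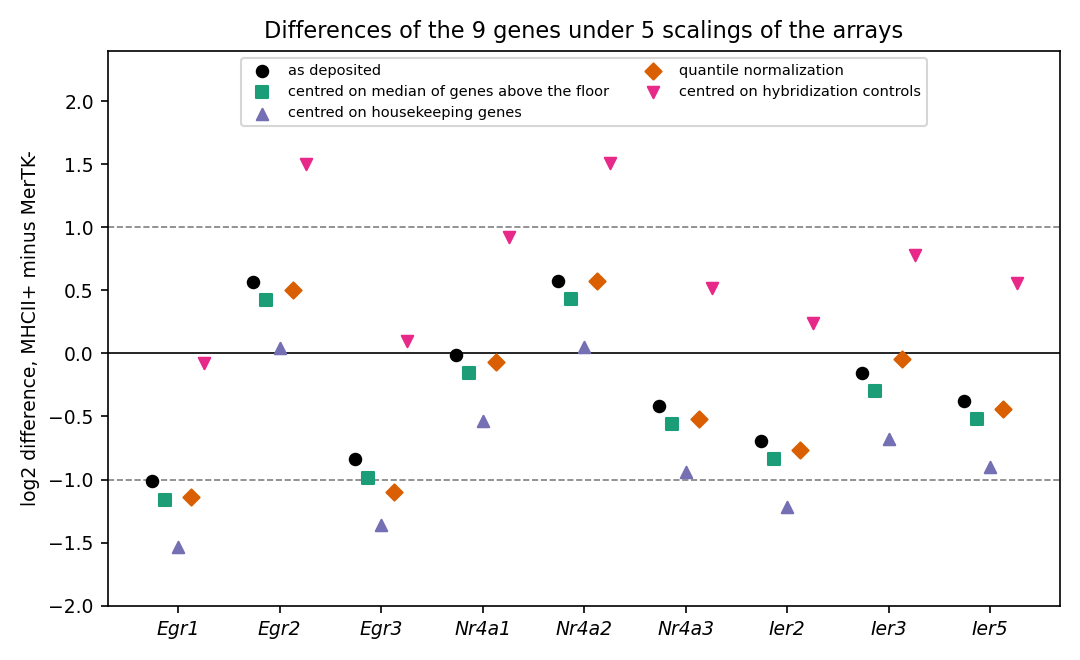
Log2 difference, MHCII+ minus MerTK- (y axis), of the 9 genes (x axis) under 5 scalings of the arrays, with dashed lines at 2-fold. Each symbol is 1 value from 1 array per population. Apart from quantile normalization the scalings shift all genes together, and centring on the hybridization controls turns the sign of 6 of the 9 genes.

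The sign of most of these differences depended on the scaling, but it turned only after centring on the hybridization controls. As deposited, the median difference was 0.15 for genes above the floor, 0.52 for 16 housekeeping genes and -0.93 for the 4 hybridization controls, bacterial and phage transcripts added to every array. Centred on all genes above the floor, the members kept the split of 2 and 7, with Egr1 past 2-fold. Centred on housekeeping genes the split was again 2 and 7, with Egr1, Egr3 and Ier2 past 2-fold towards MerTK- macrophages. Of all genes above the floor, 69.6% were then higher in MerTK- macrophages, and 20.2% of all were past 2-fold in that direction. Centred on the hybridization controls, Egr2 and Nr4a2 were past 2-fold towards MHCII+ macrophages, and Egr1 was the 1 member still lower there. Of all genes above the floor, 92.2% were then higher in MHCII+ macrophages, and 54.9% of all were past 2-fold in that direction. MHCII+ macrophages held 66.0% of all 2-fold calls as deposited, 51.0% after centring on the median, 18.3% on housekeeping genes, 98.8% on the hybridization controls and 54.5% after quantile normalization.

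**Figure D3:**
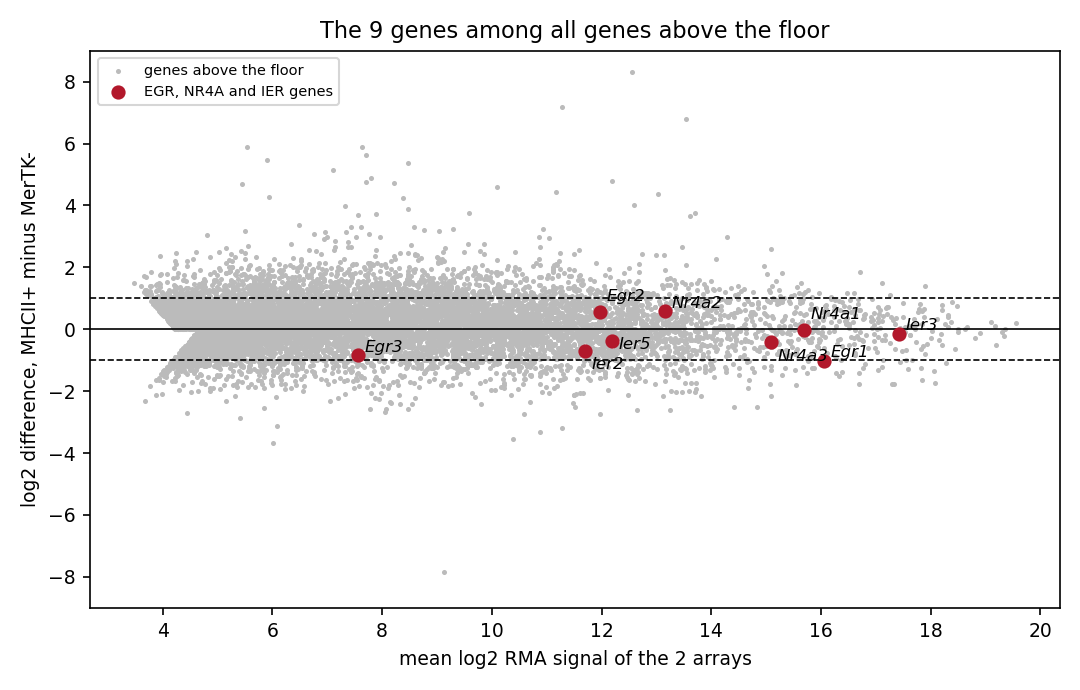
Log2 difference, MHCII+ minus MerTK- (y axis), against the mean log2 RMA signal of the arrays (x axis), for the 10521 genes above the floor (grey) and the 9 EGR, NR4A and IER genes (red), with dashed lines at 2-fold. The 9 genes lie inside the cloud of all genes, between -1.01 and 0.58.

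The AP-1 genes, which encode Fos, Jun and ATF3 proteins and are induced by the same stimuli, were likewise less than 2-fold apart as deposited. Of 8 genes 0 then passed 2-fold in either direction, beside 13.4% and 6.89% of all genes, and their median difference was -0.054. Atf3 (16.54 in MHCII+ against 15.93 in MerTK- macrophages), Fosb (14.20 against 13.73), Fos (16.94 against 16.60) and Fosl2 (13.06 against 12.77) were higher in MHCII+ macrophages. Jund (14.11 against 14.77), Junb (14.81 against 15.39), Fosl1 (8.64 against 9.05) and Jun (15.76 against 16.16) were lower there. The count of 0 did not hold under every scaling. After centring on the hybridization controls all 8 were higher in MHCII+ macrophages, with Fos, Fosb, Fosl2 and Atf3 past 2-fold. After centring on housekeeping genes Junb and Jund were past 2-fold towards MerTK- macrophages. The shares of all genes above the floor past 2-fold in these directions were 54.9% and 20.2%.

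Of 35 other immediate early genes 34 passed the floor, the exception being Arc. As deposited, 2 of them were past 2-fold towards MHCII+ and 5 towards MerTK- macrophages, beside 13.4% and 6.89% of all genes above the floor. The median difference of the 34 was -0.26. After centring on the hybridization controls the counts were 11 and 0, beside 54.9% and 0.665% of all genes, and the median was 0.67. After centring on housekeeping genes the counts were 1 and 13, beside 4.52% and 20.2%. Myc, a driver of cell growth, had 12.37 in MHCII+ against 10.43 in MerTK- macrophages (3.82-fold), and Plk2, a stress-responsive kinase, had 1.51 more on the log2 scale (2.85-fold). The 5 in the other direction as deposited were Cebpd, a C/EBP factor of the acute phase (9.96 in MHCII+ against 11.48 in MerTK- macrophages), Klf2, a restrainer of myeloid activation (9.62 against 11.00), Dusp5, a nuclear phosphatase of ERK (13.65 against 14.85), Nfkbiz, a nuclear IκB protein (13.42 against 14.61), and Nfkbia, the NF-κB inhibitor IκBα (17.05 against 18.05).

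**Figure D4:**
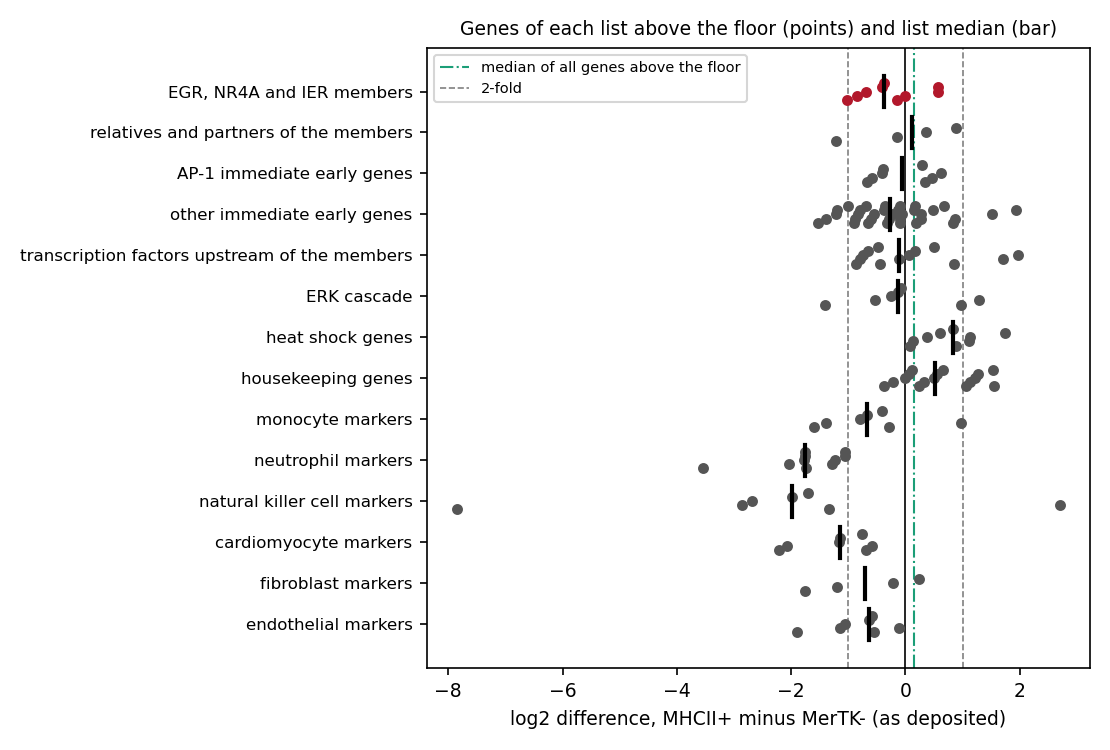
Log2 difference, MHCII+ minus MerTK- as deposited (x axis), for the genes above the floor in each list (rows), with a black bar at the list's median, dashed lines at 2-fold and a green line at the median of all genes above the floor, 0.15. The EGR, NR4A and IER genes (red) lie between -1.01 and 0.58 around a median of -0.38, and all values move by 0.93 towards MHCII+ after centring on the hybridization controls.

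Genes of the factors that start immediate early transcription were mostly less than 2-fold apart as deposited. Of 13 measured, 2 were past 2-fold towards MHCII+ and 0 towards MerTK- macrophages, beside 13.4% and 6.89% of all genes above the floor. The counts were 2 and 5 after centring on housekeeping genes, beside 4.52% and 20.2%. They were 6 and 0 when the hybridization controls were the centre, beside 54.9% and 0.665%. The 2 genes past 2-fold as deposited were Mrtfb, a coactivator of serum response factor (10.16 in MHCII+ against 8.20 in MerTK- macrophages, 3.90-fold), and Mef2c, a MADS-box factor (11.74 against 10.04, 3.25-fold). Srf itself had 8.10 in MHCII+ against 8.03 in MerTK- macrophages. The ternary complex factors Elk1 (7.01 against 7.46), Elk3 (11.28 against 11.12) and Elk4 (8.96 against 9.70), and Creb1 (9.25 against 10.03), were under 2-fold as deposited, but Creb1 and Elk4 passed it towards MerTK- macrophages on housekeeping genes, and Srf and Elk3 towards MHCII+ macrophages on the hybridization controls. In the ERK cascade, which carries growth factor signals to these factors, 7 of 12 genes were measured, with Araf 2.45-fold higher in MHCII+ and Braf 2.64-fold higher in MerTK- macrophages as deposited. Araf was under 2-fold after centring on housekeeping genes, and Braf after centring on the hybridization controls. These are transcript levels, whereas the factors and kinases are known to be switched by phosphorylation.

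Markers of the sorted cells and of other cell types were read from the same arrays. H2-Aa (16.71 in MHCII+ against 8.39 in MerTK- macrophages) and Mertk (8.77 against 5.97) differed in the direction of the labels, and 6 macrophage markers lay between 12.22 and 18.50 in MHCII+ and between 11.43 and 18.49 in MerTK- macrophages. Neutrophil markers above the floor were lower in MHCII+ macrophages for 10 of 10, with the log2 of the summed signal of all 11 measured at 18.91 in MHCII+ and 20.54 in MerTK- macrophages. The defining gene Ly6g had no named probe set, S100a9 had 16.42 in MHCII+ against 18.18 in MerTK- macrophages, and Camp did not pass the floor. The 10 above the floor stayed lower under each whole-array scaling.

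Other markers lay on both sides, and their counts here are as deposited. Of 7 natural killer cell markers above the floor, 6 were past 2-fold towards MerTK- macrophages, beside 6.89% of all genes above the floor. Among the 6, Prf1 (3.15 in MHCII+ against 4.86 in MerTK- macrophages) was only 1.55-fold over the MHCII+ floor. Klrd1 (6.91 in MHCII+ against 4.21 in MerTK- macrophages, at least 4.71-fold over the MerTK- floor) went towards MHCII+. The summed signal of all 8 natural killer cell markers measured, 7.96 in MHCII+ and 13.11 in MerTK- macrophages, was carried by Gzma (5.20 against 13.04). Cardiomyocyte markers (4 of 7 past 2-fold, summed 8.92 in MHCII+ and 10.68 in MerTK- macrophages), fibroblast markers (2 of 4, 9.24 and 10.80) and endothelial markers (3 of 7, 13.89 and 15.69) lay mostly towards MerTK- macrophages. The sums cover all genes measured, which were 8, 7 and 7. MerTK- macrophages were the side of 7 of the 9 EGR, NR4A and IER genes and of 41.6% of all genes above the floor, with 6.89% of all past 2-fold. Centred on housekeeping genes, the counts past 2-fold towards MerTK- macrophages were 7 of 7 cardiomyocyte, 2 of 4 fibroblast and 6 of 7 endothelial markers, beside 20.2% of all genes. After centring on the hybridization controls 3 of the 7 cardiomyocyte, 2 of the 4 fibroblast and 4 of the 7 endothelial markers were instead higher in MHCII+ macrophages.

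As deposited, monocyte markers were lower in MHCII+ macrophages for 6 of 7 genes, with Itgal and Hp past 2-fold, beside 6.89% of all genes above the floor. After centring on the hybridization controls they were lower there for 2 of 7, with 0 past 2-fold in that direction, beside 0.665% of all genes. The exception as deposited was Ccr2, the chemokine receptor of recruited monocytes, with 16.15 in MHCII+ against 15.18 in MerTK- macrophages. The paper's single-cell data placed the MHCII+ cluster among macrophages with MerTK and without CCR2. At the level of this transcript the MHCII+ array went against that description, and the reason was not tested. Dendritic cell markers lay towards MHCII+ macrophages, the side of Egr2 and Nr4a2 and of 58.4% of all genes, for 4 of the 4 above the floor. Of these Itgax had 9.40 in MHCII+ against 5.72 in MerTK- macrophages (12.8-fold), and Cd209a had 8.62 against 3.16, at least 15.4-fold over the MerTK- floor, whereas Flt3, Zbtb46, Xcr1 and Clec9a did not pass the floor. The B cell markers Cd79b (5.53 against 3.33) and Ms4a1 (4.52 against 2.79) were also higher in MHCII+ macrophages, at least 1.82-fold and 1.11-fold over that floor. The part of these cell types in the EGR, NR4A and IER values was not tested, and in pooled cells a smaller number of cells of a type and less RNA in each cannot be told apart.

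Heat shock genes, which the digestion of tissue is also known to induce, lay on the other side from most of the 9 genes as deposited, but on the same side as 8 of them after centring on the hybridization controls. All 9 heat shock genes measured were higher in MHCII+ macrophages as deposited, as were 58.4% of all genes above the floor and 13 of 16 housekeeping genes. Past 2-fold there were 3 of the 9, beside 13.4% of all genes. Their median difference was 0.82, against -0.38 for the EGR, NR4A and IER genes. These medians are 1.20 apart, which a shift of a whole array leaves as it is. Hspd1 (12.95 in MHCII+ against 11.20 in MerTK- macrophages, 3.36-fold), Hsph1 (14.41 against 13.28, 2.19-fold) and Hsp90aa1 (17.82 against 16.71, 2.16-fold) were those past 2-fold. The differences of the 6 others were 0.89 for Hspa5, 0.82 for Hspe1, 0.61 for Dnajb1, 0.37 for Hspa1a, 0.13 for Hspa1b and 0.081 for Hspb1. After centring on housekeeping genes, 3 of the 9 heat shock genes were lower in MHCII+ macrophages, against 0 with the hybridization controls as the centre. The part of the digestion in any of these values was not tested.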

How the data were processed

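Total RNA of sorted macrophages was amplified, labelled with biotin and hybridized to mouse Clariom S arrays per the study's methods, although the series text names an older array. The deposited log2 values were made by the authors with RMA and global scaling; the processing notes name Affymetrix Expression Console, with the version not given in the sources used here. Each array had 28846 probe sets, of which 22206 stand for transcripts and 19572 carry 1 gene symbol (several: 0). Current symbols were taken through Entrez IDs from the RefSeq gene table of GRCm38.p6, in which all 19572 were found. Of 19505 genes 55 had several probe sets, and the one with the highest mean was used.

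With 1 array per population no test was run and no p-value is given. Differences were taken between deposited log2 values, a gene was called at 2-fold as in the study's methods, and the calls were read beside the share of all genes above the floor. The differences were tested on simulated data with known shifts. The members, the 20 gene lists, the floor and the 7 motifs were chosen with earlier results of these data known. All 9 members are named, and of the lists every gene at least 2-fold apart could be named, and of partners, AP-1, upstream factors and ERK cascade every gene; others were named after their values had been seen. The 10 alternatives concerned scaling, floor, probe sets and threshold. The counts of the other lists under the whole-array scalings were added after their deposited values had been seen. Python 3.11.15, numpy 2.4.6 and pandas 2.3.3 were used.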

Additional observations from a re-analysis of the deposited data

How the results depend on the processing

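As deposited, 0 of the 9 genes were past 2-fold towards MHCII+ macrophages and 1 towards MerTK- macrophages. Centring on the hybridization controls gave 2 and 0, beside 54.9% and 0.665% of all genes above the floor. The number for MerTK- was 3 after centring on housekeeping genes, 2 after quantile normalization, 2 with the mean over probe sets (Egr1 and Egr3) and 3 at a 1.5-fold threshold. In the same order, the shares of all genes above the floor were 20.2%, 8.78%, 6.89% and 16.8%. The median difference of the 9 genes, -0.38, was -0.52 after centring on the median of genes above the floor, -0.90 on housekeeping genes, 0.56 on the hybridization controls, -0.44 after quantile normalization and -0.27 with a floor from the negative controls, which leaves out Egr3. In the same order, that of the AP-1 genes (-0.054) was -0.20, -0.58, 0.88, -0.091 and 0.29, the last without Fosl1, and that of the other immediate early genes (-0.26) was -0.41, -0.79, 0.67, -0.33 and -0.30, and -0.23 with no floor. Over all genes, 1407 were past 2-fold towards MHCII+ and 725 towards MerTK- macrophages; these counts were 476 and 2122 on housekeeping genes, 5777 and 70 on the hybridization controls, 602 and 311 with the floor from negative controls, and 2894 and 1765 at 1.5-fold. No paired analysis was possible because each population had 1 array, and for the same reason no replicate could be left out.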
